A study of Homo sapiens with 35 samples.

Results

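The comparison is of HCT116 cells depleted of CDK19 with control cells after 24 h in low glucose medium. Its members are the 3 arrays titled for the hairpin against CDK19 (shCDK19) in low glucose and the 3 arrays titled for the non-target hairpin (shControl) in low glucose, 6 of the 35 arrays of the series, and they are described across 18404 genes. HCT116 is an established human colorectal carcinoma line. Cells were plated in serum-containing McCoy's 5A medium and then kept for 24 h in DMEM with low or high glucose, whose glucose concentrations the labels do not state. Total RNA was measured on Affymetrix whole-transcript gene arrays, with 1 sample per array. Further groups were used only for contrast. In the same experiment these were shControl cells in high glucose and cells with a hairpin against CDK8 (shCDK8) in low glucose, with 3 arrays each. From the normal growth experiment they were shControl and shCDK19 cells in the plating medium, also with 3 arrays each, and from the stress experiments shControl and shCDK19 cells after 12 h of 5-fluorouracil or 24 h at 1% oxygen, with 2 arrays each. All groups carry a hairpin and none is the untransduced line. No shCDK19 array in high glucose was analysed here, and each target is represented by 1 hairpin line, so CDK19 loss and any other feature of that line cannot be told apart. The labels do not say that replicates came from separate cultures, so the p-values speak only to the spread among these arrays, part or all of which may be technical.

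CDK19 and its paralogue CDK8 are cyclin C-dependent kinases. Either of them can fill the kinase module of Mediator, a large complex that bridges DNA-bound transcription factors and RNA polymerase II; the module joins and leaves the complex, and it is known both to restrain and to promote transcription. CDK8 is known as a colorectal cancer oncogene that acts with beta-catenin, and the module has been linked to the serum response, interferon, hypoxia and glycolysis programmes. When glucose is scarce, cells are known to engage AMP-activated kinase, the integrated stress response led by ATF4, and the unfolded protein response, because protein glycosylation in the endoplasmic reticulum needs sugar.

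The deposited values are log2 signals per transcript cluster with a floor at 4.32 (20 before the logarithm). On the 6 arrays between 8.89% and 9.63% of clusters lay at the floor, the 75th percentile was between 9.15 and 9.24. Correlations across clusters were 0.992 to 0.996 within a group and 0.990 to 0.992 between the groups. The shCDK19 replicate 3 had the narrowest interquartile range, 3.63, against 3.73 to 3.76 on the other 5 arrays. Levels below are log2 signals in replicate order, changes are log2 differences of shCDK19 minus shControl ± SE from limma, and adjusted p-values are Benjamini-Hochberg values over all 18404 genes with a threshold of 0.05. A gene is said to have risen or fallen where it passed that threshold.

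The cells had the marker profile of epithelial carcinoma cells on both sides. The 9 measured epithelial markers (such as EPCAM, KRT8 and CDH1) had a summed linear level of 45468 to 47094 in shControl and 48736 to 50351 in shCDK19 arrays, with 4 members higher and 2 lower by the test, beside 9.11% of all genes higher and 10.8% lower. The summed level was 894 to 972 against 844 to 987 for 10 fibroblast markers and 709 to 750 against 687 to 802 for 10 endothelial markers. For 13 leukocyte markers it was 2394 to 2609 against 2256 to 2407. Median levels of these 3 lists were 5.70 to 6.43, below the median of all genes, and no marker lay at the floor on all 6 arrays. Among the leukocyte markers LYZ, the lysozyme gene, rose by 1.21 ± 0.14 (adjusted p = 0.000237) and CD68, a lysosomal membrane protein, fell by 0.31 ± 0.070.

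The knockdown was seen first. CDK19 measured 9.84, 9.73 and 9.84 in shControl and 8.35, 8.30 and 8.09 in shCDK19 arrays, so every knockdown array lay below every control. It fell by 1.56 ± 0.087, which is 2.95-fold (adjusted p = 2.22e-06). CDK8 shares its only transcript cluster with ADRA1B, an adrenergic receptor gene. This cluster was therefore tested in a separate fit of all 32321 clusters, and its p-values were adjusted over those clusters. That cluster measured 10.35, 10.21 and 10.43 against 10.30, 10.55 and 10.33; the groups overlapped and the change of 0.06 ± 0.11 did not pass the test (adjusted p = 0.864). Among the 6 measured genes of the kinase module 3 were lower and none was higher. Beside CDK19 these were MED13L, which fell by 0.43 ± 0.037 from 11.75, 11.71 and 11.69 to 11.27, 11.34 and 11.25, and MED13, which fell by 0.31 ± 0.047. MED13 and MED13L are the paralogous subunits that tether the module to the core complex. Of 24 core Mediator subunits 2 were called higher and 2 lower, and these calls were thin: without shControl replicate 2, or without shCDK19 replicate 1, 0 of them passed.

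Across the genome the low glucose comparison called 3671 genes, 19.9% of those tested. Of these 1677 were higher (9.11%) and 1994 lower (10.8%). Most differences were small. The median absolute change was 0.32 for called genes and 0.11 for all genes, with a median SE of 0.079. Of the called genes 1002 changed by less than 0.25 and 1952 by 0.25 to 0.5, whereas 114 changed at least 2-fold. The large changes were mostly increases, with 84 genes higher (0.456%) and 30 lower (0.163%) by 2-fold or more. Beyond 4-fold there were 25 genes, 19 of them higher. Replicate values did not overlap between the groups for 3643 of the called genes and for 33.9% of all genes.

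**Figure D1:**
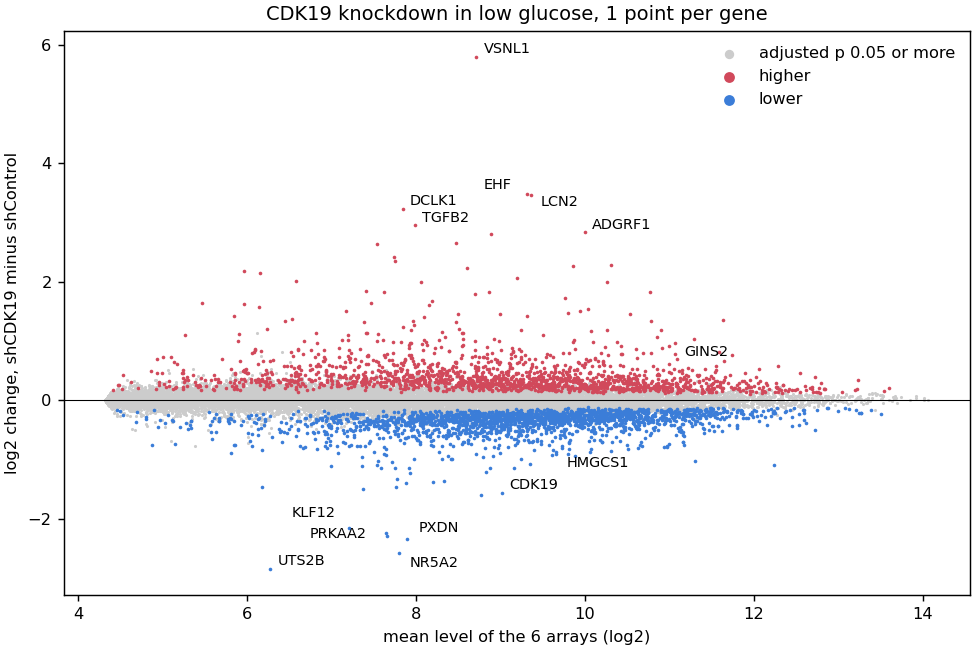
Change of each of 18404 genes in low glucose (y axis, log2 shCDK19 minus shControl, 3 arrays per group) against its mean log2 level on the 6 arrays (x axis), 1 point per gene. The few genes far from 0 lie mostly above it, led by VSNL1 at 5.80, while CDK19 itself lies at -1.56.

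The 4 genes that rose most lay below the median gene in control cells and above it in the knockdown line. VSNL1, which encodes the neuronal calcium sensor visinin-like 1, was at 5.90, 5.58 and 5.96 in shControl and at 11.58, 11.67 and 11.60 in shCDK19 arrays. This is a 55.7-fold rise (5.80 ± 0.096, adjusted p = 6.24e-10), the largest difference measured in this comparison. Its control values lie near the median levels of the fibroblast and endothelial markers, and no detection call was used here, so the fold is that of the measured signals only. EHF, an ETS transcription factor of epithelia, rose from 7.56, 7.57 and 7.60 to 11.07, 11.01 and 11.08 (11.1-fold, 3.48 ± 0.061). LCN2, the secreted siderophore-binding protein lipocalin 2, rose by nearly the same amount, from 7.58, 7.77 and 7.54 to 11.17, 11.10 and 11.03 (11.1-fold, 3.47 ± 0.088). DCLK1, a microtubule-associated kinase known as a marker of intestinal tuft cells, went from 6.28, 6.15 and 6.25 to 9.39, 9.54 and 9.45 (9.41-fold, 3.23 ± 0.11). Absence of overlap between the groups was part of the rule by which these and the following top genes were chosen, and is not a finding.

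The next genes in rank included a growth factor, a receptor and a channel. TGFB2, a ligand of the TGF-beta receptors, rose from 6.63, 6.43 and 6.48 to 9.39, 9.57 and 9.45 (7.75-fold, 2.95 ± 0.084). ADGRF1, an adhesion G protein-coupled receptor, rose from 8.55, 8.60 and 8.60 to 11.36, 11.54 and 11.37 (7.16-fold, 2.84 ± 0.055). ANO1, a calcium-activated chloride channel, rose from 9.20, 9.11 and 9.19 to 11.39, 11.52 and 11.45 (4.88-fold, 2.29 ± 0.047). TGM2, tissue transglutaminase, which crosslinks proteins, rose from 8.71, 8.73 and 8.72 to 10.96, 11.11 and 10.92 (4.84-fold). SLPI, a secreted inhibitor of leukocyte proteases, rose from 7.66, 7.19 and 7.61 to 9.94, 9.84 and 9.36 (4.69-fold, 2.23 ± 0.16), with the widest spread among the 15 highest genes. The remaining 6 of those 15 rose between 4.56-fold and 7.04-fold: the zinc finger gene ZNF704, the Notch coactivator MAML2, CAPN6 of the calpain family, the myosin light chain MYL2, ITGBL1, which resembles integrin beta chains, and TNFSF18, a membrane-bound ligand of immune cells (GITRL).

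The steepest falls were of UTS2B, NR5A2 and PXDN. UTS2B, which encodes a peptide related to the vasoactive hormone urotensin 2, measured 7.74, 7.62 and 7.73 in shControl and 4.74, 5.08 and 4.73 in shCDK19 arrays, close to the floor. It fell 7.21-fold (-2.85 ± 0.14, adjusted p = 7.31e-07). NR5A2, a nuclear receptor of the gut and liver (LRH-1), fell from 9.18, 9.01 and 9.08 to 6.54, 6.66 and 6.34 (5.97-fold, -2.58 ± 0.099). PXDN, peroxidasin, which crosslinks collagen IV, fell from 9.05, 9.07 and 9.09 to 6.64, 6.51 and 7.03 (5.08-fold, -2.34 ± 0.11). Among these 3 genes the shCDK19 arrays spread most for PXDN. PRKAA2, the alpha 2 catalytic subunit of AMP-activated kinase, the kinase that senses low cellular energy, fell from 8.74, 8.58 and 8.95 to 6.72, 6.32 and 6.54 (4.71-fold, -2.24 ± 0.13, adjusted p = 2.73e-06). The other catalytic subunit gene, PRKAA1, changed by 0.06 ± 0.041 and did not pass (adjusted p = 0.354). KLF12, a transcriptional repressor of the Krüppel-like family, fell from 8.21, 8.33 and 8.32 to 5.99, 6.19 and 6.22 (4.45-fold, -2.15 ± 0.064). Further genes among the 15 lowest were the carboxypeptidase CPM (-1.50 ± 0.10), the axon guidance ligand SEMA3C (-1.47 ± 0.16), the annexin ANXA10 (-1.46 ± 0.13) and HSPB8, a small heat shock protein (-1.32 ± 0.16).

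**Figure D2:**
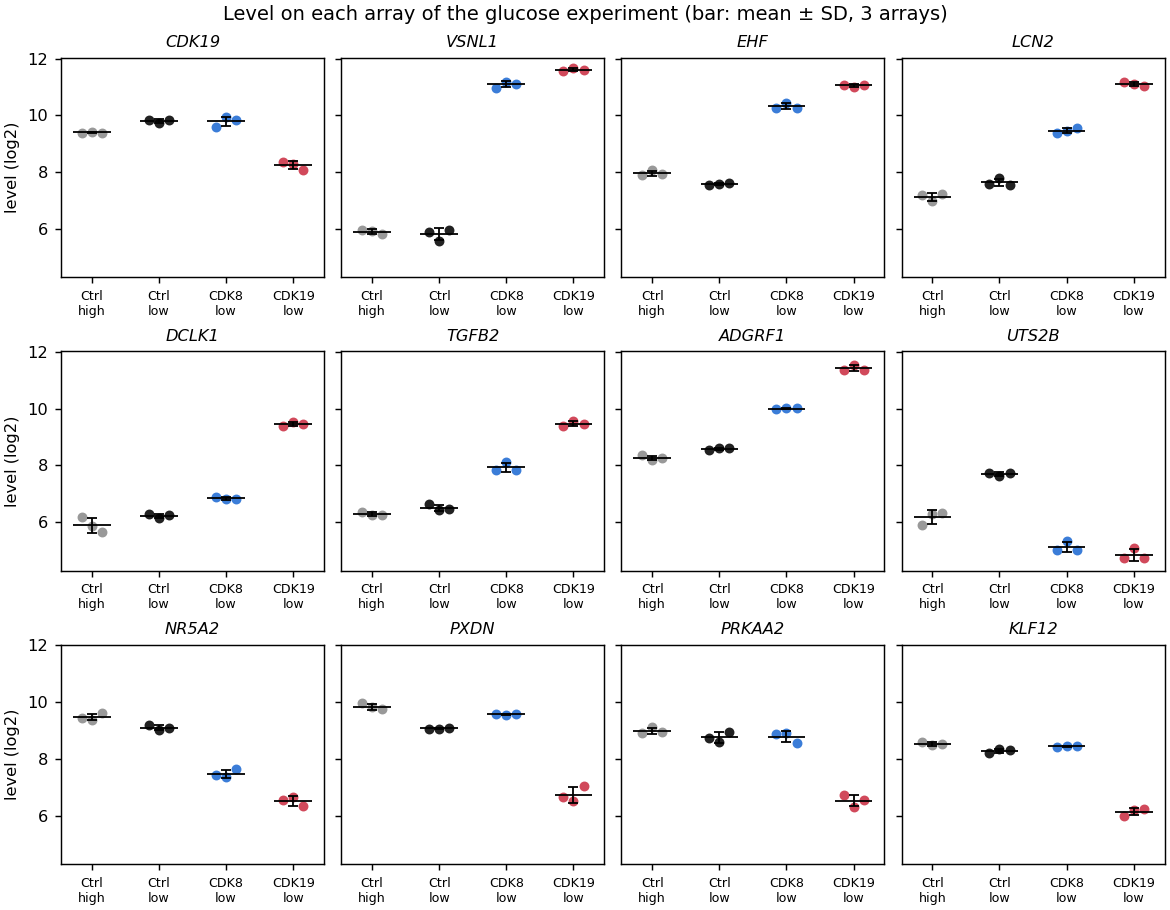
Log2 signal of CDK19 and 11 strongly changed genes on the 12 arrays of the glucose experiment, 1 point per array, with the bar at the mean ± SD of 3 arrays per group. VSNL1 rises from 5.90, 5.58 and 5.96 in shControl to 11.58, 11.67 and 11.60 in shCDK19 cells in low glucose, and UTS2B falls from 7.74, 7.62 and 7.73 to 4.74, 5.08 and 4.73.

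Both microRNA genes among the 15 lowest are shown with their mature sequences from RefSeq (GRCh38.p14), because their seeds, bases 2 to 8 in capitals, set which messages they can pair with. The array clusters measure the hairpin loci, not the mature microRNAs.
hsa-miR-15a-5p, chr13:50049167-50049188, minus strand: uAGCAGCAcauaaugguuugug
hsa-miR-15a-3p, chr13:50049130-50049151, minus strand: cAGGCCAUauugugcugccuca
hsa-miR-221-3p, chrX:45746180-45746202, minus strand: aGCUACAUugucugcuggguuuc
MIR15A, whose 5p product is known to target BCL2, fell from 8.81, 8.82 and 8.77 to 6.38, 6.78 and 6.37 (4.89-fold, -2.29 ± 0.16, adjusted p = 7.83e-06). MIR221, known to target the cell cycle inhibitor CDKN1B, fell from 9.47, 9.66 and 9.59 to 7.87, 8.01 and 8.05 (3.03-fold, -1.60 ± 0.072, adjusted p = 4.02e-07). The 3 mature sequences share no seed.

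Gene lists were read next, each by its counts and its median beside 9.11% of genes higher, 10.8% lower and a median change of 0.011 over all genes. The lists hold 709 distinct tested genes. Sterol and fatty acid synthesis, the chaperones of the endoplasmic reticulum and ATF4 targets held mostly lower genes among those called, whereas S phase genes and interferon-stimulated genes held mostly higher ones.

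**Figure D3:**
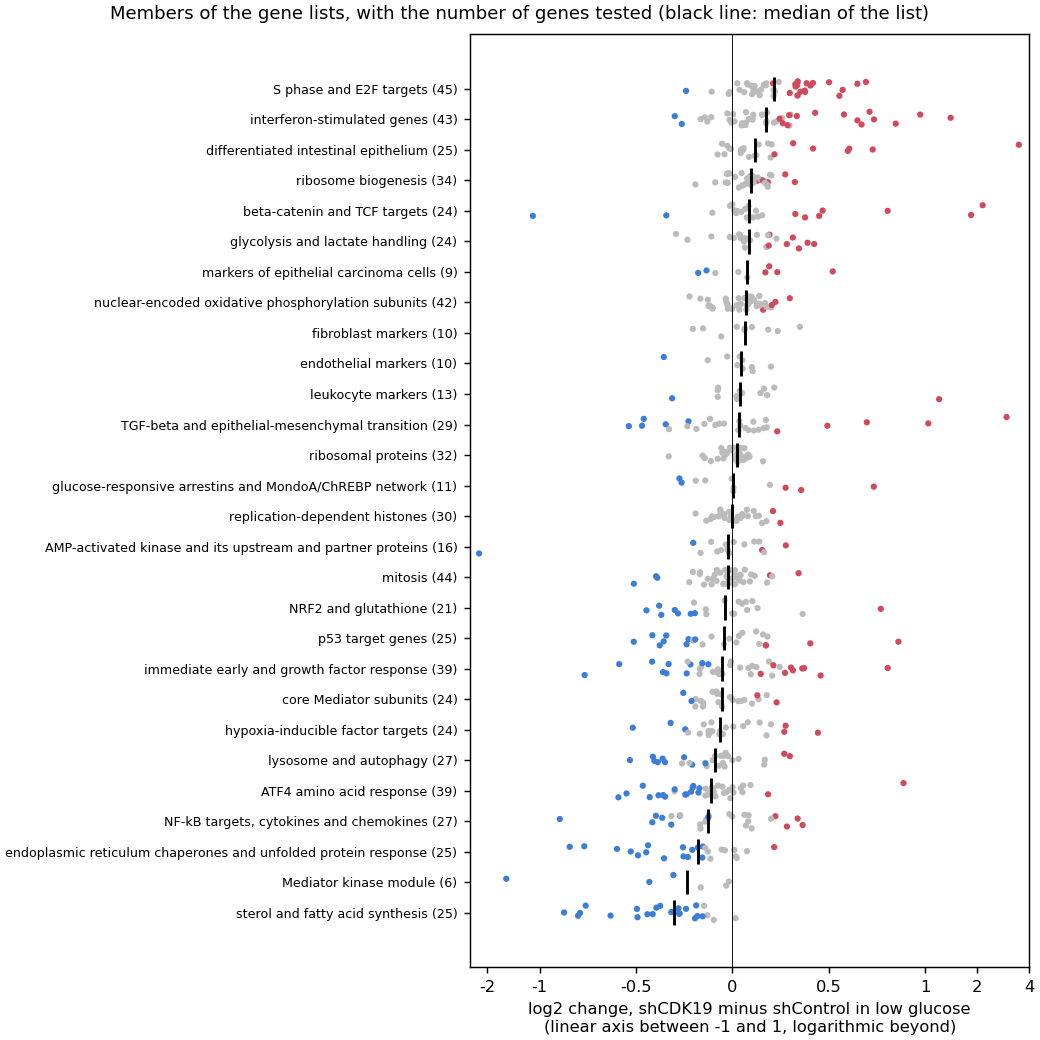
Log2 change in low glucose (x axis, linear from -1 to 1 and logarithmic beyond) of every tested member of 28 gene lists, with red for members that rose, blue for members that fell, grey for members that did not pass and a black line at the list's median. The median is -0.30 for sterol and fatty acid synthesis and 0.21 for S phase genes.

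Enzymes and regulators of cholesterol and fatty acid synthesis were lower in CDK19-depleted cells. Of 25 tested members 21 fell and 0 rose, with a median of -0.30. The count of lower members was 15 to 18 with 1 array left out and 15 to 21 in the other settings. HMGCS1, the cytosolic synthase that makes HMG-CoA, measured 10.08, 10.08 and 10.12 in shControl and 9.27, 9.31 and 9.09 in shCDK19 arrays (-0.87 ± 0.060, adjusted p = 7.83e-06). INSIG1, the endoplasmic reticulum protein that holds back the sterol sensor SCAP and is itself a sterol-responsive gene, fell from 11.01, 10.99 and 11.10 to 10.25, 10.28 and 10.17 (-0.80 ± 0.043, adjusted p = 1.8e-06). ELOVL6, a fatty acid elongase, fell from 11.30, 11.27 and 11.42 to 10.52, 10.59 and 10.51 (-0.79 ± 0.074), and STARD4, a cholesterol carrier, from 9.78, 9.99 and 10.08 to 9.14, 9.31 and 9.12 (-0.76 ± 0.087). The groups did not overlap for these genes, as for 99.2% of called genes, so this is no separate finding. On single arrays the list's median lay at -0.31, -0.31 and -0.38 in shCDK19 cells relative to the shControl mean, and at 0.00, -0.02 and 0.02 in shControl cells.

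Chaperones and other genes of the unfolded protein response fell in the same cells. Of 25 members 15 fell and 1 rose, with a median of -0.18. CRELD2, a secreted chaperone of the endoplasmic reticulum, fell from 10.11, 9.98 and 10.05 to 9.23, 9.22 and 9.16 (-0.84 ± 0.049, adjusted p = 2.73e-06). SEL1L, a component of the machinery that degrades misfolded proteins there, fell from 11.29, 11.32 and 11.46 to 10.54, 10.66 and 10.56 (-0.77 ± 0.053). MANF, a secreted stress-induced factor, fell from 11.42, 11.54 and 11.48 to 10.77, 10.98 and 10.90 (-0.60 ± 0.073), and ATF6, a membrane-bound transcription factor that senses misfolded proteins, from 11.41, 11.41 and 11.46 to 10.90, 10.91 and 10.89 (-0.53 ± 0.051). Every shCDK19 array was below every control for these genes, but 99.2% of called genes had no overlap. In shControl cells the low against high glucose comparison, which shares the shControl low glucose arrays, had called 22 members of this list higher and 0 lower (31.2% of all genes called, 13.9% higher and 17.3% lower), with 1.18 for CRELD2 and 1.24 for SEL1L.

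The promoter of CRELD2, the member with the largest fall, is printed because it holds a match to the endoplasmic reticulum stress element, which ATF6 is known to bind. The 250 bases before its start in RefSeq (GRCh38.p14) are given 5′ to 3′ on the gene's strand, with the match in capitals, at bases 80 to 62 before the start and on the opposite strand.
CRELD2, chr22:49918384-49918633, plus strand: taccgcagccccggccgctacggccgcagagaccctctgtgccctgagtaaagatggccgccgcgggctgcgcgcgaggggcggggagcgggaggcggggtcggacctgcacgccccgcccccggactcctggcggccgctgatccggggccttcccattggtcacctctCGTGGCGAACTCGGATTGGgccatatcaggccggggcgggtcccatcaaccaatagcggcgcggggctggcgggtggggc
The search was for CCAAT followed after 9 bases by CCACG, on both strands, from 250 bases before to 50 bases after each start. It matched 27 of 35116 promoters (0.0769%), and 7 of the 23 list members with a promoter in the table, 5 of them among 14 lower members. Here and below, the background share counts single promoters. A list member counts where any of its promoters matched, so these shares have unlike units. A match is a description of these letters only.

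ATF4 targets, which supply amino acids and drive the integrated stress response, were lower as well. Of 39 members 15 fell and 2 rose, with a median of -0.11. CHAC1, a glutathione-degrading enzyme, fell from 11.68, 11.69 and 11.70 to 11.13, 11.16 and 11.13 (-0.55 ± 0.043, adjusted p = 1.76e-05). DDIT3, which encodes the stress transcription factor CHOP, fell from 11.24, 11.44 and 11.33 to 10.92, 10.87 and 10.83 (-0.46 ± 0.060). ATF5, a related factor, fell by 0.59 ± 0.065. NUPR1, a small chromatin-associated stress protein, went the other way and rose from 7.89, 7.82 and 7.63 to 8.62, 8.67 and 8.72 (0.89 ± 0.12, adjusted p = 0.000575). In the shControl line, low glucose had raised 35 of the 39 members and lowered 0, beside 13.9% of all genes higher and 17.3% lower. That comparison uses the same shControl low glucose arrays, so errors in them would move the 2 changes in opposite directions. CHAC1 rose by 1.62 and DDIT3 by 2.80 with low glucose in shControl cells. For both genes the knockdown arrays lay between the controls in low and in high glucose. In high glucose CHAC1 measured 10.14, 10.02 and 10.07 and DDIT3 8.58, 8.58 and 8.47.

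Genes of S phase were higher in CDK19-depleted cells. Of 45 members 19 rose and 1 fell, with a median of 0.21. GINS2, a subunit of the replicative helicase, rose from 10.83, 10.68 and 10.72 to 11.44, 11.46 and 11.41 (0.69 ± 0.069, adjusted p = 8.76e-05). MCM5 and MCM2, subunits of the same helicase, rose from 9.94, 9.84 and 9.88 to 10.61, 10.57 and 10.44 (0.65 ± 0.062) and from 9.82, 9.80 and 9.78 to 10.41, 10.44 and 10.27 (0.57 ± 0.060). CDT1, which loads the helicase on origins, rose from 9.67, 9.50 and 9.48 to 10.22, 10.15 and 9.94 (0.56 ± 0.081). The groups did not overlap for any of these 4 genes, which held for 99.2% of called genes. On single arrays the list's median was 0.28, 0.28 and 0.15 above the shControl mean. Low glucose had lowered 41 of the 45 members in shControl cells, with a median of -0.56, beside 17.3% of all genes lower. That comparison also uses the shControl low glucose arrays. The arrays in high glucose stood 0.57, 0.57 and 0.60 above the shControl mean in low glucose. For MCM5 the 3 high glucose values were 10.87, 10.81 and 10.74, above all 3 knockdown values.

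Other lists tied to proliferation and growth held few called genes. Of 44 mitosis genes 2 rose and 3 fell, with a median of -0.02; the count of lower genes was 6 without shCDK19 replicate 2 and 1 without shControl replicate 3, and the median was 0.017 without shCDK19 replicate 3. CENPE, a kinetochore motor, fell by 0.51 ± 0.10. Of 30 replication-dependent histone genes 2 rose and 0 fell with a median of 0.00, and without shControl replicate 3, shCDK19 replicate 1 or shCDK19 replicate 2 the count was 0. Of 32 ribosomal protein genes 0 passed in limma's test and 1 had an unadjusted p under 0.05. Of 34 ribosome biogenesis genes 5 rose, a count that was 1 without shControl replicate 3 and 1 without shCDK19 replicate 1. Of 42 subunits of oxidative phosphorylation 4 rose, and 7 without shCDK19 replicate 3.

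The promoter of GINS2 is shown as the S phase gene with the largest rise, with a match to the E2F site TTTCCCGC in capitals. The 250 bases before the start (RefSeq, GRCh38.p14) are given 5′ to 3′ on the gene's strand, and the match, on the opposite strand, spans bases 31 to 24 before the start.
GINS2, chr16:85688955-85689204, minus strand: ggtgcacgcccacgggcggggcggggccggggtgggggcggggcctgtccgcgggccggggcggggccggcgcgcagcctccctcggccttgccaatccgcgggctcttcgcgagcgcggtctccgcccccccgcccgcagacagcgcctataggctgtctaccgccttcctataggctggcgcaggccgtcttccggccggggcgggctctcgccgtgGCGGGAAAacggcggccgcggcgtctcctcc
In the same 300-base windows TTTCCCGC matched 572 of 35116 promoters (1.63%) and 11 of 40 list members, 5 of them among 17 higher ones. The related site TTTGGCGC matched 0.652% of promoters and 8 of 40 members, 4 of them among the higher ones. The sterol regulatory element, searched in the same way for the sterol list, matched 0.0456% of promoters and 1 of 23 members, so no promoter of that list is shown.

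Interferon-stimulated genes were higher in part. Of 43 members 14 rose and 2 fell, with a median of 0.18; without shControl replicate 2, and without shCDK19 replicate 1, 9 rose. PLSCR1, a phospholipid scramblase with antiviral activity, rose from 7.49, 7.39 and 7.29 to 8.80, 8.93 and 8.65 (1.41 ± 0.071, adjusted p = 1.07e-06). IFIT1, IFIT2 and IFIT3, which bind foreign RNA or one another, rose by 0.98 ± 0.11, 0.85 ± 0.15 and 0.74 ± 0.079. IFIT1 went from 6.58, 6.18 and 6.27 to 7.26, 7.48 and 7.22. It remained below the median level of all genes, which PLSCR1 passed. The list's median on single shCDK19 arrays was 0.21, 0.19 and 0.10.

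The promoters of PLSCR1 and IFIT1 are printed with matches to the core of the interferon-stimulated response element, GAAA followed after 2 bases by GAAA and searched on both strands, in capitals. Both show the 250 bases before the start (RefSeq, GRCh38.p14), 5′ to 3′ on the gene's strand; for PLSCR1, which has 2 promoters in the table, the one with the match is shown.
PLSCR1, chr3:146544608-146544857, minus strand: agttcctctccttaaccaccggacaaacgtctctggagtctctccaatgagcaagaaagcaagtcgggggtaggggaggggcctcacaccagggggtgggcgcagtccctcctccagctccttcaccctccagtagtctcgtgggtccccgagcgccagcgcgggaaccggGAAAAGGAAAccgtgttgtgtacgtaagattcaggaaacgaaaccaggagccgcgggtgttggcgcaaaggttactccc
IFIT1, chr10:89392373-89392622, plus strand: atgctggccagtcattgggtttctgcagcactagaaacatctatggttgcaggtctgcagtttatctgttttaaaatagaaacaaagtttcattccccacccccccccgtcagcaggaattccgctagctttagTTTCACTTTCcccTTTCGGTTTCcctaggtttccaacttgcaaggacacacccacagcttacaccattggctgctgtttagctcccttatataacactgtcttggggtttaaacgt
The match in PLSCR1 spans bases 79 to 70 before the start, and those in IFIT1 bases 116 to 107 and 103 to 94, on the opposite strand. In the 300-base windows the motif matched 1255 of 35116 promoters (3.57%) and 25 of 35 list members with a promoter, 6 of them among 10 higher ones.

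**Figure D4:**
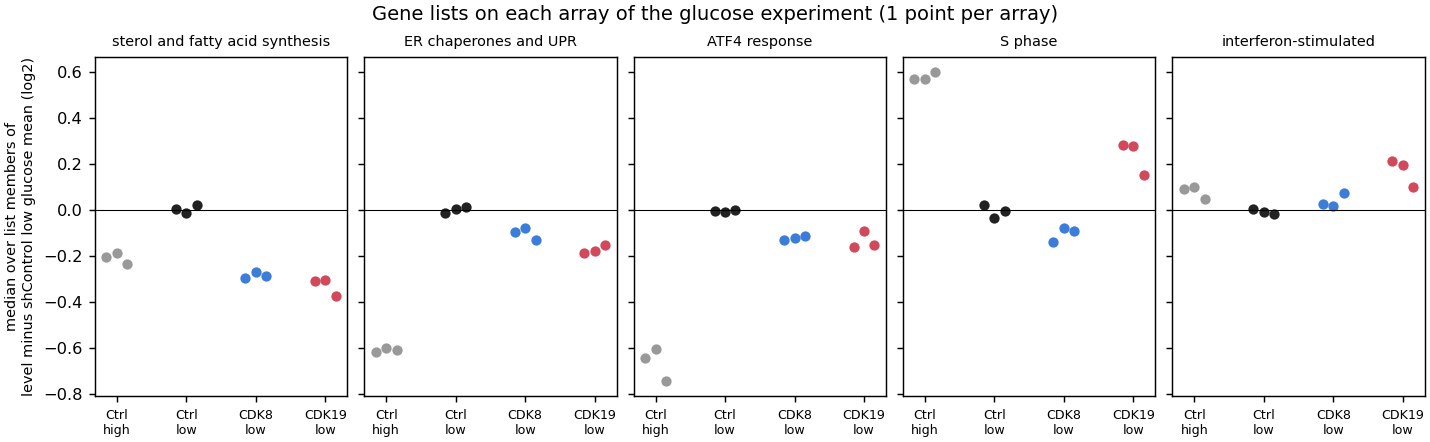
Median change of 5 gene lists on each of the 12 arrays of the glucose experiment, relative to the mean of the shControl arrays in low glucose (y axis, log2), 1 point per array. In shCDK19 cells the sterol list lies at -0.31, -0.31 and -0.38 and the S phase list at 0.28, 0.28 and 0.15.

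Transcripts of glucose metabolism genes changed modestly. Of 24 genes of glycolysis and lactate handling 7 rose and 0 fell, with a median of 0.08. The count of higher members was 4 with only the 6 arrays or with array medians subtracted, and 5 to 8 with 1 array left out. The glucose transporter genes SLC2A4 and SLC2A1 rose by 0.42 ± 0.068 and 0.39 ± 0.043; SLC2A1 went from 12.56, 12.53 and 12.49 to 12.92, 12.90 and 12.93. PFKFB3, which makes the activator of phosphofructokinase, rose by 0.35 ± 0.060. Of 11 genes of the glucose-sensing MondoA and ChREBP network 3 rose and 2 fell. ARRDC4, an arrestin known to follow intracellular sugar phosphates, rose from 6.37, 6.56 and 6.69 to 7.42, 7.36 and 7.06 (0.73 ± 0.12, adjusted p = 0.00161). Its partner TXNIP, which restrains glucose uptake, went from 5.53, 5.45 and 5.43 to 5.86, 5.81 and 5.81 (0.36 ± 0.086, adjusted p = 0.0158). All TXNIP values lay below the median level of all genes. The TXNIP call was lost without shControl replicate 2 (adjusted p = 0.0502), shControl replicate 3 (0.0568) or shCDK19 replicate 1 (0.0541). Of the 16 genes of AMP-activated kinase and its partners, 2 fell and 2 rose, and PRKAA2 was the only member of that list to change by more than 0.28. Without shCDK19 replicate 1 the count of higher members was 0, and without shControl replicate 3 the count of lower members was 1.

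Lists linked to Mediator kinases in other settings held called genes of both directions, in part near the shares of 9.11% and 10.8% over all genes. Of 24 beta-catenin and TCF targets 7 rose and 2 fell, with a median of 0.09. FGF9, a growth factor, rose from 5.02, 4.98 and 5.22 to 7.29, 7.20 and 7.18 (4.44-fold, 2.15 ± 0.089), and CEMIP, a hyaluronan-degrading protein, from 6.43, 6.51 and 6.54 to 8.32, 8.46 and 8.23 (3.59-fold, 1.84 ± 0.070). The FGF9 values in shControl cells lay near the floor, so its fold is that of the measured signals only. DKK1, a secreted Wnt antagonist, fell from 12.76, 12.80 and 12.80 to 11.70, 11.73 and 11.65 (2.14-fold, -1.10 ± 0.041, adjusted p = 1.08e-07). Of 39 immediate early and growth factor response genes 9 rose and 10 fell. The phosphatase gene DUSP4 rose from 9.85, 9.76 and 9.76 to 10.60, 10.67 and 10.52 (0.81 ± 0.057), while its relative DUSP1 fell from 10.20, 10.06 and 10.08 to 9.40, 9.42 and 9.22 (-0.77 ± 0.074) and the AP-1 gene JUNB by 0.59 ± 0.048. Of 24 targets of the hypoxia-inducible factors 3 rose and 3 fell, close to the share over all genes, and without shControl replicate 1 only 1 fell. ADM, the vasodilator peptide adrenomedullin, rose by 0.44 ± 0.070 and the repressor BHLHE40 fell by 0.32 ± 0.046. Of 25 p53 targets 4 rose and 9 fell. PLK2, a stress-responsive kinase, rose from 9.51, 9.33 and 9.53 to 10.40, 10.36 and 10.20 (0.86 ± 0.064), and the death receptor gene TNFRSF10B fell from 11.88, 11.84 and 11.92 to 11.43, 11.38 and 11.29 (-0.51 ± 0.041).

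Genes of inflammation and of protein turnover were more often lower than higher among those called, while the called genes of intestinal differentiation were higher. Of 27 NF-kB targets and cytokines 7 fell and 4 rose. CXCL8, the neutrophil-attracting chemokine interleukin 8, fell from 7.51, 7.61 and 7.46 to 6.52, 6.60 and 6.77 (-0.90 ± 0.099, adjusted p = 0.000182), and NFKBIA, the inhibitor that NF-kB itself induces, fell by 0.40 ± 0.053. Of 29 genes of epithelial-mesenchymal transition and TGF-beta signalling 5 rose and 5 fell. Among its matrix genes THBS1 (1.04 ± 0.063) and SPARC (0.70 ± 0.11) rose and FN1, fibronectin, fell by 0.47 ± 0.040; SKIL, a repressor of SMAD signalling, fell by 0.54 ± 0.11. Of 25 genes of the differentiated intestinal epithelium 7 rose, 0 fell and the other 18 did not pass; those that rose included EHF, the mucin MUC13 (0.73 ± 0.095), the brush border peptidase DPP4 (0.61 ± 0.090) and the adhesion molecule CEACAM1 (0.60 ± 0.10). MUC13 lay near the floor in shControl cells, at 4.72, 4.76 and 4.73, and reached 5.64, 5.51 and 5.24. Of 27 lysosome and autophagy genes 9 fell and 2 rose, with the sialidase NEU1 lower by 0.53 ± 0.051 on the log2 scale and the autophagy receptor SQSTM1 falling from 11.92, 11.93 and 11.89 to 11.51, 11.51 and 11.49. Of 21 NRF2 and glutathione genes 7 fell and 1 rose; the haem oxygenase HMOX1 fell by 0.45 ± 0.075 and the ketosteroid reductase AKR1C1 rose by 0.77 ± 0.17.

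The next comparison asked which of these differences depended on the growth condition. The normal growth arrays were fitted on their own, with a median SE of 0.085 against 0.079 in low glucose. Counts of calls in the 2 conditions therefore come from unlike fits. In normal growth the same pair of lines, on separate arrays, had 1301 called genes (7.07%), 676 higher (3.67%) and 625 lower (3.4%). Of these, 913 were called in the same direction in low glucose, which is 70.2% of the normal growth list and 24.9% of the low glucose list, and 15 were called in opposite directions. Of the 114 genes that changed at least 2-fold in low glucose, 58 were also called with at least 2-fold in normal growth, where such changes were found for 0.342% of genes upwards and 0.147% downwards, and all 114 had the same sign there, as had 65.2% of all genes. CDK19 had fallen by 1.50 ± 0.11 in normal growth, and the difference between conditions of -0.06 ± 0.14 did not pass the test (adjusted p = 0.991). The difference for TGFB2 (-0.19 ± 0.14) and for PXDN (0.21 ± 0.15) did not pass either. Medium and experiment differ together with glucose here, so they cannot be told apart.

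The interaction contrast called 329 genes (1.79%), of which 182 had a more positive change in low glucose (0.989%) and 147 a more negative one (0.799%). With array medians subtracted the counts were 70 and 76. Of the 329 genes, 165 were called in low glucose but not in normal growth, 54 the reverse, 82 in both conditions with the same sign, 15 with opposite signs and 13 in neither. Differences of at least 2-fold were found for 22 genes, 12 positive (0.0652%) and 10 negative (0.0543%).

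Several of the strongest low glucose increases were larger there than in normal growth. LCN2 rose by 1.43 ± 0.14 in normal growth, from 7.15, 6.92 and 6.90 to 8.53, 8.29 and 8.44, so the difference was 2.04 ± 0.19 (adjusted p = 4.15e-07). SLPI differed by 1.98 ± 0.17 (adjusted p = 5.92e-08); its values in normal growth were 6.83, 6.81 and 6.75 in shControl and 6.97, 7.10 and 7.09 in shCDK19 cells. DCLK1 differed by 1.76 ± 0.22 (adjusted p = 2.88e-05). SECTM1, a secreted and membrane protein of epithelial and myeloid cells, rose from 8.01, 7.90 and 7.96 to 9.79, 9.81 and 9.76 in low glucose (1.83 ± 0.061) and by 0.54 ± 0.050 in normal growth. EHF had the larger rise in normal growth, 4.47, and a difference of -0.99 ± 0.18 (adjusted p = 0.00317).

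UTS2B had a difference of -2.43 ± 0.21 (adjusted p = 1.14e-07), and its values near the floor limit how far a fall could be measured in normal growth. Its normal growth values were 5.10, 5.25 and 5.39 in shControl and 4.80, 4.99 and 4.69 in shCDK19 cells, a change of -0.42 ± 0.14 that did not pass (adjusted p = 0.128). In shControl cells it measured 5.90, 6.28 and 6.34 in high glucose and rose by 1.52 in low glucose. The knockdown arrays in low glucose therefore lay at the level of the normal growth arrays of the same line, while the shControl arrays did not. NR5A2, the carboxypeptidase CPM and the small heat shock protein HSPB8 also had more negative changes in low glucose, by -1.03 ± 0.14, -1.19 ± 0.15 and -0.97 ± 0.21.

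Sterol genes had different changes in the 2 conditions. In normal growth 5 of the 25 members had risen and 1 had fallen, with a median of 0.09. In the interaction contrast 12 members had a more negative change in low glucose and 0 a more positive one. The count of 12 was 9 or 10 with 1 array left out and 9 with array medians subtracted. INSIG1 rose in normal growth from 9.76, 9.60 and 9.55 to 10.32, 10.21 and 10.18 (0.60 ± 0.099, adjusted p = 0.0108) and fell in low glucose, a difference of -1.40 ± 0.10 (adjusted p = 2.15e-08). HMGCS1 did not pass in normal growth (0.12 ± 0.14, adjusted p = 0.819), and its difference was -0.99 ± 0.19 (adjusted p = 0.00511). The fatty acid synthase gene FASN and the lanosterol synthase gene LSS were also called in opposite directions, with -0.44 and -0.41 in low glucose and 0.33 and 0.41 in normal growth; these 2 are named because they are among the 15 genes with opposite calls. On the shControl arrays HMGCS1 stood at 9.30, 9.23 and 9.12 in normal growth, below its values of 9.72, 9.76 and 9.79 in high and 10.08, 10.08 and 10.12 in low glucose DMEM.

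Some members of the S phase and ATF4 lists had more positive changes in low glucose, and their number depended on the scaling and on single arrays. For S phase, 15 of 45 members differed upwards and 0 downwards, beside 0 higher and 3 lower in normal growth. MCM5 differed by 0.62 ± 0.090 (adjusted p = 0.000193) and MCM2 by 0.59 ± 0.12 (adjusted p = 0.00651). The count of 15 was 6 without normal growth shCDK19 replicate 3, 7 without normal growth shControl replicate 1 or without low glucose shCDK19 replicate 1 or 2, and 9 without low glucose shControl replicate 2 or 3. With the median of each array subtracted it was 1. For ATF4 targets 9 members differed upwards, 5 without any one of normal growth shControl replicate 3, normal growth shCDK19 replicate 3, low glucose shControl replicate 2 and low glucose shCDK19 replicate 2, and 4 with array medians subtracted. Here the normal growth arrays had the larger falls. CHAC1 fell by 1.90 ± 0.12 there, from 11.75, 11.25 and 11.28 to 9.57, 9.51 and 9.52, against 0.55 in low glucose (difference 1.35 ± 0.17, adjusted p = 2.65e-05). DDIT3 fell by 1.45 ± 0.11 there, from 9.98, 9.69 and 9.75 to 8.40, 8.32 and 8.33 (difference 0.99 ± 0.17, adjusted p = 0.00105). In the list of unfolded protein response genes 3 members differed downwards, led by CRELD2 (-0.64 ± 0.080, adjusted p = 3.12e-05), and 1 upwards. The upward call was lost in 9 of the 12 fits that left out 1 array, all but those without normal growth shControl replicate 2 or 3 or low glucose shCDK19 replicate 1, and with array medians subtracted the counts were 1 downwards and 0 upwards. Of the 43 interferon-stimulated genes 1 differed, PLSCR1, by 0.94 ± 0.14 (adjusted p = 0.000191). Without low glucose shControl replicate 2, or without low glucose shCDK19 replicate 1, 2 differed, and with array weights 9.

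**Figure D5:**
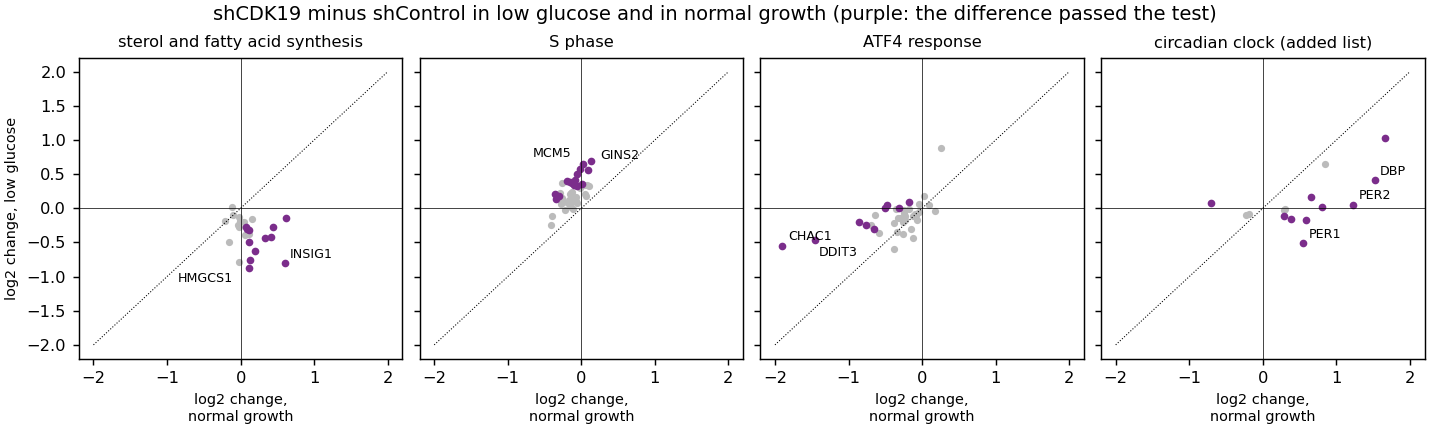
Log2 change of shCDK19 minus shControl in normal growth (x axis) and in low glucose (y axis) for members of the sterol, S phase, ATF4 and circadian clock lists, 1 point per gene, purple where the difference between the conditions passed the test. INSIG1 lies at 0.60 in normal growth and -0.80 in low glucose, and CHAC1 at -1.90 and -0.55.

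The other 2 conditions had 2 arrays per group and few calls. Under 5-fluorouracil 154 genes were called (0.837%), 113 of them also in low glucose and 101 in the same direction, which is 65.6% of that list. Over all genes 53.8% had the same sign in both conditions, and 19.9% were called in low glucose. Under hypoxia 42 genes were called (0.228%), of which 38 were called in low glucose, all in the same direction. Over all genes 49.2% had the same sign in hypoxia and in low glucose.

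In low glucose the CDK8 line was compared with the CDK19 line to show where the latter differed. The shCDK8 arrays were set against the same shControl arrays, so both sets of changes share their controls and are given side by side. There the CDK8 cluster fell by 2.13 ± 0.11, CDK19 changed by -0.01 ± 0.087, and 4107 genes were called (22.3%), 12.1% higher and 10.2% lower. The direct contrast of shCDK19 minus shCDK8 called 4778 genes (26.0%), 2069 higher (11.2%) and 2709 lower (14.7%) in the shCDK19 line. DPP4 was 3.59 ± 0.090 higher in the shCDK19 line on the log2 scale, with 9.58, 9.60 and 9.53 against 5.77, 5.98 and 6.19; relative to shControl it rose by 0.61 in one line and fell by 2.98 in the other. SLC38A5, an amino acid transporter, was 3.43 ± 0.071 higher (0.46 and -2.97), SLC1A3, a glutamate transporter, 2.95 (1.48 and -1.48) and RGS2, a regulator of G protein signalling, 2.81 (0.41 and -2.40). In the other direction TNFSF4, the ligand of the T cell receptor OX40, had a difference of -4.05 ± 0.082; its change was 4.25 in the shCDK8 line and 0.20 ± 0.082 (adjusted p = 0.117) in the shCDK19 line. SEMA3A, a secreted guidance molecule, had 1.19 in the shCDK19 line and 4.66 in the shCDK8 line, and PXDN -2.34 and 0.50.

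The lists differed between the lines in some places and not in others. Of the 25 sterol list members 21 were lower and 0 higher in the shCDK19 line, beside 17 lower and 1 higher in the shCDK8 line. The count of 21 was 15 to 18 with 1 array left out. The direct contrast called 6 members higher and 6 lower in the shCDK19 line. It did not pass for INSIG1 (0.02, adjusted p = 0.771) or HMGCS1 (-0.08, adjusted p = 0.351), while the 2 changes were -0.44 and -0.01 for FASN and -0.28 and -0.59 for MSMO1, a sterol demethylating enzyme. The MSMO1 call in the shCDK19 line was lost without shControl replicate 2 or 3 and without shCDK19 replicate 1 or 2. UTS2B changed by -2.85 and -2.56 (contrast -0.29, adjusted p = 0.166), but lay close to the floor in both knockdown lines, so a difference between them could not have been seen below it. The S phase list had 19 members higher and 1 lower in the shCDK19 line and 2 higher and 7 lower in the shCDK8 line, with array medians of 0.28, 0.28 and 0.15 against -0.14, -0.08 and -0.09, and the direct contrast called 35 members higher and 1 lower. The unfolded protein response list had 15 members lower and 1 higher in the shCDK19 line and 9 lower and 2 higher in the shCDK8 line, where its median on single arrays was -0.10, -0.08 and -0.13. The direct contrast called 10 of its 25 members lower and 1 higher in the shCDK19 line. CRELD2 was among the 2 that rose in the shCDK8 line, by 0.29. ATF4 targets were lower in both lines, with 15 lower and 2 higher in shCDK19 and 15 lower and 1 higher in shCDK8 cells. Their medians were -0.11 and -0.10. For this list the direct contrast called 10 of 39 members higher and 5 lower in the shCDK19 line. PRKAA2 changed by 0.02 (adjusted p = 0.951) in the shCDK8 line, ITGBL1 by -0.18 (adjusted p = 0.172) and KLF12 by 0.16 (adjusted p = 0.12), beside -2.24, 2.35 and -2.15 in the shCDK19 line.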

How the data were processed

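RNA of HCT116 cells was hybridised to Affymetrix gene arrays, and the authors' deposited log2 values, 1 per transcript cluster, were made with Partek per the submitters' processing notes. The background correction and normalization, and why values end at a floor, are not stated in the sources used here. That the scale is log2 was read from the range of values. Per the series' design text, the authors tested with one-way analysis of variance.

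Of 32321 clusters, 19158 had 1 gene symbol, 1388 several and 11775 none listed; for 637 genes with over 1 cluster the one with the highest mean was kept, which left 18404 genes. Of these, 181 lay at the floor on all 6 arrays and stayed in the test. The 12 arrays of the glucose experiment were fitted with limma 3.58.1 (lmFit, eBayes; R 4.3.3; package data.table, version 1.17.8), with 1 mean per group; p-values are two-sided with Benjamini-Hochberg adjustment at 0.05. The difference from normal growth was a contrast in 1 fit of all 35 arrays. The steps were tested on simulated data.

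The members, the 28 gene lists, the rule for named genes and the motifs were chosen with earlier results of these data known. Named were CDK19, CDK8, TXNIP and ARRDC4. The rule added up to 15 genes in each direction with the largest changes and no overlap of replicates. It also took up to 4 called members per list, and up to 8 in each direction for the other contrasts. The text gives fewer of these, taken from the top. Outside the rule it also names PRKAA1, clock genes, examples of markers and some of the 15 genes with opposite calls. Alternatives were other sets of arrays in the fit, a filter on dim genes, array medians, quantile normalization, all clusters, a replicate block, array weights, plain analysis of variance and leaving out each array. The shControl and shCDK19 replicates with the same number did not deviate together (r = 0.047, -0.170 and -0.086), so the numbers were not taken as pairs.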

Additional observations from a re-analysis of the deposited data

Results flagged for a closer look

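The effect of the CDK19 hairpin in low glucose differed from its effect in normal growth, by the interaction contrast of limma, for 329 genes. Values below are log2 changes in low glucose minus those in normal growth for genes named by the rule, all at an adjusted p under 0.05.

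More positive in low glucose were LCN2 (2.04), SLPI (1.98), DCLK1 (1.76), CHAC1 (1.35), TNFSF18 (1.31), SECTM1 (1.29), MAML2 (1.21), MYL2 (1.15), ITGBL1 (1.07), DDIT3 (0.99), PLSCR1 (0.94), ANO1 (0.90) and TGM2 (0.86). Smaller positive differences were those of ADM (0.77), ZNF266 (0.69), THBS1 (0.68), SESN2 (0.65), MCM5 (0.62), BAMBI (0.62), MCM2 (0.59), GINS2 (0.57), VSNL1 (0.52), MUC13 (0.49), CDT1 (0.47) and ZNF704 (0.47).

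More negative in low glucose were UTS2B (-2.43), INSIG1 (-1.40), CPM (-1.19), PER2 (-1.17), FGF9 (-1.13), DBP (-1.10), PER1 (-1.06), SEMA6A (-1.06), NR5A2 (-1.03), HMGCS1 (-0.99), EHF (-0.99) and HSPB8 (-0.97). The smaller ones were STARD4 (-0.88), ARRDC4 (-0.88), ANXA10 (-0.82), RGS2 (-0.69), FER1L4 (-0.64), CRELD2 (-0.64), SEL1L (-0.61) and SLC2A1 (-0.40).

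Calls of 9 of these genes were lost in some fits that left out 1 of the 12 arrays: VSNL1 in 10 of them, GINS2 in 9, ZNF266 in 8, CDT1 in 7, ZNF704 in 5, BAMBI, MUC13 and FER1L4 in 4 and SEL1L in 3. For SEL1L these were the fits without normal growth shCDK19 replicate 3, low glucose shControl replicate 3 and low glucose shCDK19 replicate 1. The direction of the difference was kept in all of those fits. Other settings, such as another scaling, also cost calls. Of 64 genes followed for this difference, 11 lost their call in at least 1 of them. With array medians subtracted only 1 of the 45 S phase members passed, so at most 1 of MCM5, MCM2, GINS2 and CDT1 did.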

How the results depend on the processing

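The low glucose comparison called 3671 genes in the main fit, 5948 with array weights, whose estimation did not converge and gave the shCDK19 replicates weights of 4.51, 0.498 and 0.398, and 5508 at an unadjusted p in the plain analysis of variance. The other settings gave 2636 (only the 6 arrays) to 3841 (every cluster) and leaving out 1 array 2700 to 3655. The share of higher calls moved with the scaling: with array medians subtracted 1156 genes were higher and 1784 lower, and without shCDK19 replicate 3 the counts were 1672 and 1473. The difference from normal growth called 146 genes instead of 329 with array medians subtracted, 2436 with array weights and 1911 at an unadjusted p, and 226 to 310 with 1 array left out. The contrast of both knockdown lines called 3914 to 4918 with 1 array left out, against 4778. The replicate block gave 3617, 288 and 4762 calls for these 3 comparisons. Numbers shared by shCDK8 and shCDK19 arrays gave correlations of 0.015, 0.311 and 0.272. By these values, replicates numbered 2 and 3 deviated together in part. Crossing numbers 2 and 3 gave -0.302 and -0.271. These crossed values add no separate support, because deviations from a group's mean cancel out over its 3 arrays. With 1 of 3 pairs under 0.1 the numbers were not taken as pairs in the main fit. NFIB, which passed nowhere in the low glucose comparison, ranged from -0.147 to 0.025 with 1 array left out, reversed only without shCDK19 replicate 3. Over the genes followed, leaving out an array lost a call in 95 fits of 29 genes and kept direction and call in 850. Folds of dim genes are shortened where 1 group lies at the floor, and the number of arrays, 3 per group, limits precision.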

Other observations

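Genes of the circadian clock differed between the conditions; this list of 15 genes was drawn up after PER1, PER2 and DBP had been seen among the differences, so it supports nothing beyond these values. In normal growth 10 members were higher in the shCDK19 line and 1 lower, with a median of 0.55. In low glucose 4 were higher and 1 lower, with a median of -0.01. The difference passed for 10 members, 9 with a more negative and 1 with a more positive change in low glucose, beside 1.79% of all genes. Leaving out 1 array cost NR1D2, 1 of these 9, its call in 7 of 12 fits. With array medians subtracted 8 members had a more negative change and 0 a more positive one. PER2, a repressor of the clock's own transcription, rose in normal growth from 8.67, 8.60 and 8.62 to 9.96, 9.85 and 9.77 (1.23 ± 0.072), and its change in low glucose was 0.06 ± 0.053 (adjusted p = 0.541). PER1, its paralogue, rose by 0.55 ± 0.036 in normal growth and fell by 0.51 ± 0.047 in low glucose. DBP, an output gene of the clock, rose in both, by 1.52 ± 0.078 and 0.42 ± 0.040. BHLHE41, another repressor of the clock, rose by 1.66 in normal growth and by 1.04 in low glucose. BMAL1, the activating partner of CLOCK, fell by 0.71 in normal growth and changed by 0.08 ± 0.038 in low glucose (adjusted p = 0.204). No label gives the time of day of harvest, and the medium differs between the 2 experiments, so its part in these values was not tested.

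Among the 15 genes called in opposite directions in low glucose and in normal growth were also SIPA1L2 (0.38 and -0.40), the carbonic anhydrase CA2 (0.42 and -0.34), ADM (0.44 and -0.33) and periplakin, PPL (-0.39 and 0.36).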
